A study of Mus musculus with 9 samples.

Results

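Clrn1 and 7 other genes that underlie Usher syndrome were followed in mouse retina: Cdh23, Pcdh15, Myo7a, Ush1c, Ush1g, Whrn and Adgrv1. They are 8 of the 19751 genes that the array's probes name, and every probe whose transcript maps to them was taken, which gave 16 probes of 39429, with between 1 and 6 probes for a gene. A probe entered the tests if it stood well above background throughout 1 group or more; 15 of the 16, from 7 of the 8 genes, met this, as did 29267 probes in all. The 8 genes were chosen by name as a family around Clrn1, and Clrn1 itself was selected on its AAP values, which lay close together and below those of the PBS group, so these are given as a description, with no test.

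The retinas came from adult male C57BL/6 mice whose right eye had been injected into the vitreous 7 days earlier. The AAP group received the peptide AAP, the HAN group the peptide HAN, and the PBS group phosphate-buffered saline; both peptides bind vascular endothelial growth factor (VEGF) per the series title, and the labels word a dose of 1 µM for all 3 groups. Each group had 12 mice and 3 arrays, and 4 retinas were pooled for an array, so a value belongs to a pool and not to a mouse. No uninjected eye was analysed here, and the controls share the injection with the peptide groups. Values are log2 of the processed signal minus the 75th percentile of the array, so 0 means the brightness of that percentile. They are not corrected for probe properties, so levels are compared between arrays for a probe and not between probes.

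Usher syndrome combines inherited deafness with degeneration of photoreceptors. The proteins of these genes work in linked complexes in the hair bundle of inner ear hair cells and around the connecting cilium and its neighbouring membrane in photoreceptors, where cargo passes to the outer segment. Clarin-1, the product of Clrn1, is a small membrane-spanning protein mutated in the third clinical type of the syndrome. Cadherin-23 and protocadherin-15 form extracellular links, myosin VIIa is an actin motor, harmonin (Ush1c), SANS (Ush1g) and whirlin (Whrn) are scaffolds, and Adgrv1 is a very large adhesion receptor.

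The tissue label was met by the markers: Gnat1, the rod transducin subunit, averaged 7.60 in AAP, 7.38 in HAN and 7.60 in PBS on this log2 scale, and all 13 rod, 9 cone, 9 bipolar and 11 Mueller glia markers were measured. In bulk tissue, fewer cells of a type and less RNA per cell cannot be told apart.

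The 250 bases upstream of the RefSeq start site (GRCm38.p6) were searched for CCAAT, the letters of the CCAAT box, and for TAATCC, a core recognised by the photoreceptor factor CRX, on both strands; the motifs share no position. Promoters of 7 of the 8 genes were found in the table (Ush1g was not), 8 promoters in all because Myo7a has several starts. CCAAT was present in those of Clrn1, Pcdh15 and Adgrv1, and those 3 are shown to set the Clrn1 sequence beside the members that hold the same letters. CCAAT occurs in 33.9% of the 32841 promoters in the table. TAATCC occurs in 6.25% of them and in none of these 8. Clrn1 lies at chr3:58885213-58885462 on the minus strand, with CCAAT 196 bases before the start. Pcdh15 lies at chr10:73821617-73821866 on the plus strand and Adgrv1 at chr13:81633145-81633394 on the minus strand, both with the reverse form ATTGG, at 90 and 64 bases before the start. Each is written 5′ to 3′ along the gene with the match in capitals, as a description of the letters and not as a binding site.
Clrn1: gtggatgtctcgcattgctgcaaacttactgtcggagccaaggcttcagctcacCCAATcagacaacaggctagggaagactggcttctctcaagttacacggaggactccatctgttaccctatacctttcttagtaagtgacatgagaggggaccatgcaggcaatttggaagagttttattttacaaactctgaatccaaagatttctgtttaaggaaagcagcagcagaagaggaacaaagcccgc
Pcdh15: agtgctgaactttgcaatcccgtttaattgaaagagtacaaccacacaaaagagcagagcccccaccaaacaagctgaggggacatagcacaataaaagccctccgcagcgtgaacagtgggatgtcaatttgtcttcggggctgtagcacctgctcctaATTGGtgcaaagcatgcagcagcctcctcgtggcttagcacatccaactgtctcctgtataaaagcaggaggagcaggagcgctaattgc
Adgrv1: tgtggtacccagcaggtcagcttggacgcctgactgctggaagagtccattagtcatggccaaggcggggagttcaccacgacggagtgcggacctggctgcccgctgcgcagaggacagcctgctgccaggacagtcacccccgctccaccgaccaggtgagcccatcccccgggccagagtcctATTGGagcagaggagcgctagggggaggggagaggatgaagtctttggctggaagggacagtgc
GC content was 46.4% for Clrn1, 50.4% for Pcdh15 and 64.4% for Adgrv1, against a median of 52.4% over all promoters in the table.

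The arrays differed in precision and in marker content. Array weights estimated by limma ran from 0.365 in AAP 3 and 0.583 in HAN 3 to 2.40 in PBS 3. Between 71.6% and 79.2% of spots were well above background, and the 75th percentile of the signal ran from 1340 in AAP 3 to 2349 in PBS 1. Array barcodes put the 9 arrays on 3 slides: AAP 1, PBS 1, PBS 2 and PBS 3 on the first, AAP 2, AAP 3, HAN 1 and HAN 2 on the second, and HAN 3 on the third. The summed level of the 11 measured of 14 skeletal muscle markers (Mb, Acta1 and Myh4 among them) was 117 times the percentile in AAP 1, 2.94 in AAP 2 and 47.5 in AAP 3, against 2.73 to 3.03 in HAN and 2.44 to 2.78 in PBS. Lens markers also varied within groups, summing to 124 to 1405 in AAP, 808 to 1114 in HAN and 97.1 to 1001 in PBS (Cryaa, Cryab and Cryba1 among 12).

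Clrn1 was dimmest in AAP, intermediate in HAN and brightest in PBS. Its single probe, A_52_P621691, read -4.11, -4.03 and -4.11 in AAP 1 to AAP 3. The 3 HAN arrays read -3.75, -3.88 and -3.77, and the 3 PBS arrays read -3.53, -3.60 and -3.49. No value of a group overlapped those of another group. As a percentage of the 75th percentile these are 5.90 ± 0.17% in AAP, 7.18 ± 0.36% in HAN and 8.59 ± 0.34% in PBS (SD, n = 3 each). The probe was well above background on all 9 arrays, with a spot 3.40 to 7.04 times as bright as its local background, and the scanner software put the error of a single spot at 10.2% to 11.8% of its signal.

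**Figure D1:**
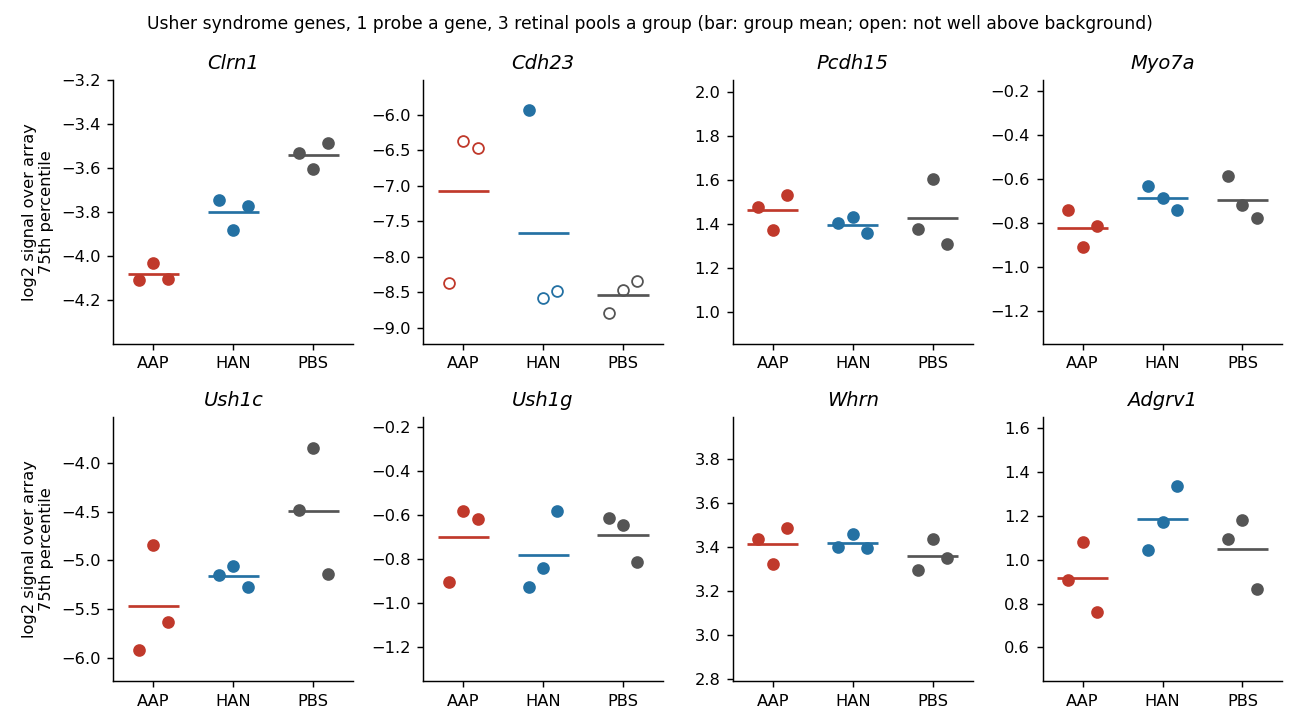
Level of each Usher gene on each array, 1 probe a gene, as log2 of the processed signal minus the 75th percentile, with AAP left, HAN in the middle and PBS right; points are arrays, open where not well above background, and bars are group means. For Clrn1 the 3 AAP points lie below the 3 HAN points, which lie below the 3 PBS points.

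In AAP, Clrn1 was 0.54 lower than in PBS on the log2 scale, a signal 31.3% lower, and 0.28 lower than in HAN. These differences chose the gene. Lower groups without overlap were found for 5.57% of all 29267 probes in AAP against PBS and for 6.77% in AAP against HAN, and nothing is read from Clrn1 being among them. Normexp background correction gave -0.23 from PBS and -0.64 from HAN, and -0.14 from HAN with HAN 3 left out. Over the 7317 dimmest probes kept, which include Clrn1, the normexp medians were 0.16 in AAP against PBS and -0.56 in AAP against HAN. On the first slide, AAP 1 alone stood at -0.57 from the PBS mean, and on the second slide AAP 2 and AAP 3 stood at -0.26 from HAN 1 and HAN 2. AAP 2, the AAP array with few muscle transcripts, stood at -0.49 from PBS by itself.

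In HAN, Clrn1 was 0.26 lower than in PBS on the log2 scale, a signal 16.4% lower. This did not pass limma's test over all probes (adjusted p = 0.408). The PBS arrays here also entered the contrast that chose the gene, and the spread behind the p pools the AAP arrays, whose closeness chose it, so this is not an independent test and no interval is given. Lower groups without overlap were found for 10.3% of all probes in HAN against PBS, and higher ones also for 10.3%. HAN and PBS share no slide, so the comparison has no value within a slide; with slide as a fixed block, linked through the AAP arrays, the difference was -0.31. The value depends on how background is treated. Normexp correction turned it to 0.41 (limma adjusted p = 0.535). With HAN 3 also left out it was -0.086 (limma adjusted p = 0.922). Normexp raised dim probes in general here. Over the 7317 dimmest probes kept, Clrn1 among them, the median in HAN against PBS was 0.72 with normexp and 0.065 without. Under normexp, Clrn1 in HAN 3 read -1.79, against -3.24 in HAN 1 and -3.33 in HAN 2.

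Over all 29267 probes, few differences passed limma's test at an adjusted p under 0.05. That was 1 probe in AAP against PBS (0.00342%), 1 in HAN against PBS (0.00342%) and 0 in AAP against HAN (0%). An unadjusted p under 0.05 was reached by 1934, 2747 and 2457 probes in these comparisons. Among the other 14 measured probes of the Usher genes, limma called 0 in each comparison, with an unadjusted p under 0.05 for 3 in AAP against PBS, 1 in HAN against PBS and 0 in AAP against HAN. Their median log2 differences were 0.07, 0.09 and 0.04, with Pcdh15 counted 6 times. With 1 probe a gene, the 6 other measured genes had medians of the opposite sign, -0.07, -0.01 and -0.07. The medians of all probes were 0.00 in each comparison.

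Groups without overlap were counted among these 14 probes. In AAP against PBS, 2 were higher and 0 lower, where 6.2% of all probes were higher and 5.57% lower. In HAN against PBS, 0 were higher and 1 lower, where 10.3% of all probes were higher and 10.3% lower. In AAP against HAN, 1 was higher and 1 lower, where 7.39% of all probes were higher and 6.77% lower. With 3 pools a group, the 95% intervals of these probes spanned from 1.12-fold to 3.45-fold on either side of the estimate. A change smaller than its interval could not be called. The intervals are not adjusted for the number of probes, and some changes larger than their interval were not called either.

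**Figure D2:**
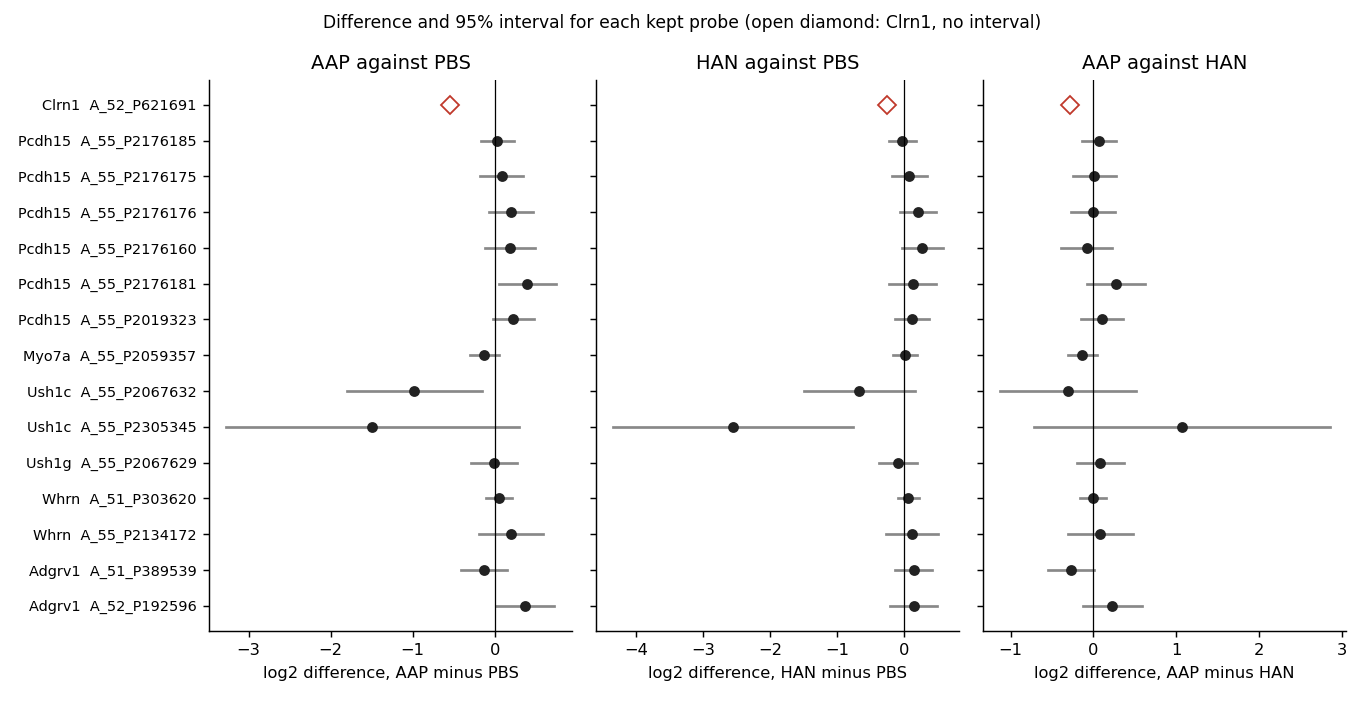
Log2 difference for each member probe, from left to right for AAP over PBS, HAN over PBS and AAP over HAN, with 95% limma intervals as bars; the open diamonds of Clrn1 have none because its AAP and PBS values chose the gene. The widest intervals are those of the 2 Ush1c probes, from -3.28 to 0.30 for A_55_P2305345 in AAP against PBS.

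Of the cadherins, Pcdh15 was well measured and Cdh23 was not. The Cdh23 probe A_66_P136311 was well above background on HAN 1 alone, so no difference is given for it. The brightest Pcdh15 probe, A_55_P2176185, read 1.48, 1.37 and 1.53 in AAP, 1.40, 1.43 and 1.36 in HAN and 1.37, 1.60 and 1.31 in PBS. All 3 groups overlapped, and the log2 differences from PBS were 0.03 in AAP (95% interval -0.17 to 0.24, adjusted p = 0.956) and -0.03 in HAN (-0.24 to 0.17, adjusted p = 0.939; limma).

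The other 5 Pcdh15 probes were dimmer, and each averaged above PBS in both peptide groups. Their log2 differences ran from 0.09 to 0.40 in AAP and from 0.07 to 0.27 in HAN. With slide as a fixed block, A_55_P2176175 turned to -0.13 in AAP and -0.28 in HAN, and in HAN A_55_P2176176 and A_55_P2176160 turned to -0.10 and -0.0094. The highest in AAP was A_55_P2176181, which read -2.52, -2.98 and -2.95 there against -3.27, -3.14 and -3.23 in PBS. Its groups did not overlap, and it did not pass the test (log2 difference 0.40, 95% interval 0.05 to 0.75, limma adjusted p = 0.733). On the first slide this probe stood at 0.70 in AAP 1, and AAP 2 by itself stood at 0.23. In HAN it stood at 0.13 from PBS, and at -0.03 with normexp and HAN 3 left out. These probes report transcripts of a single gene and are not independent of each other.

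Myo7a, the actin motor that also moves melanosomes and visual cycle cargo in the pigment epithelium, averaged lower in AAP than in HAN and PBS by less than the test could call. Its probe read -0.74, -0.91 and -0.81 in AAP, -0.63, -0.69 and -0.74 in HAN and -0.59, -0.72 and -0.78 in PBS. The highest AAP and the lowest HAN value both print as -0.74, so AAP and HAN were barely apart. The log2 difference was -0.13 in AAP against HAN (95% interval -0.31 to 0.04, limma adjusted p = 0.604) and -0.13 in AAP against PBS (adjusted p = 0.784). In HAN it was 0.01 from PBS (adjusted p = 0.986). Summed pigment epithelium markers (Rpe65, Ttr and Lrat among 11 measured of 12) ran from 43.0 to 84.8 in AAP, 31.9 to 94.5 in HAN and 58.3 to 71.0 in PBS; their part in the Myo7a values was not tested.

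Of the scaffolds, harmonin gave the largest and the least certain differences. The Ush1c probe A_55_P2067632 read -5.92, -4.85 and -5.63 in AAP, -5.15, -5.05 and -5.28 in HAN and -4.48, -3.84 and -5.14 in PBS. It averaged 0.98 below PBS in AAP (95% interval -1.80 to -0.15, limma adjusted p = 0.732) and 0.67 below in HAN (-1.50 to 0.15, adjusted p = 0.597). The PBS arrays themselves spanned more than the distance between groups. AAP 2 by itself stood at -0.36 from PBS, and without PBS 2 the AAP value was -0.65.

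The second Ush1c probe, A_55_P2305345, gave differences whose size depended on a single array. It read -5.66, -5.59 and -5.44 in AAP, -7.46, -6.42 and -6.00 in HAN and -5.61, -4.38 and -2.22 in PBS. PBS 3 was the high array, and 2 of the 3 HAN arrays were above background. The log2 difference in HAN was -2.56 (95% interval -4.35 to -0.77), which did not pass the test (limma adjusted p = 0.447), and -1.63 without PBS 3. HAN lay below PBS without overlap, as did 10.3% of all probes. In AAP it was -1.49 from PBS (adjusted p = 0.758), and -0.56 without PBS 3.

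SANS and whirlin differed by less than the spread between arrays. Ush1g read -0.90, -0.58 and -0.62 in AAP, -0.93, -0.84 and -0.58 in HAN and -0.61, -0.64 and -0.81 in PBS, with log2 differences from PBS of -0.01 in AAP (95% interval -0.29 to 0.28) and -0.09 in HAN (-0.38 to 0.19). The bright Whrn probe A_51_P303620 read 3.43, 3.32 and 3.49 in AAP, 3.40, 3.46 and 3.40 in HAN and 3.29, 3.44 and 3.35 in PBS. Its differences from PBS were 0.05 in AAP (95% interval -0.10 to 0.21) and 0.06 in HAN (-0.10 to 0.22), narrower than those of every other member probe given an interval. The dim Whrn probe A_55_P2134172 averaged 0.20 above PBS in AAP and 0.11 above in HAN, and without AAP 3, its highest array, the AAP value was 0.02. Limma adjusted p-values for these 3 probes were 0.835 to 0.993 against PBS.

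The 2 probes of Adgrv1 disagreed in AAP. The bright probe A_51_P389539 read 0.91, 1.08 and 0.76 in AAP, 1.05, 1.17 and 1.33 in HAN and 1.09, 1.18 and 0.86 in PBS. It averaged -0.13 from PBS in AAP (limma adjusted p = 0.860) and 0.14 in HAN (adjusted p = 0.771). The dim probe A_52_P192596 read -2.23, -2.24 and -1.77 in AAP, -2.20, -2.28 and -2.45 in HAN and -2.64, -2.25 and -2.45 in PBS. It stood 0.37 above PBS in AAP (95% interval 0.01 to 0.72, adjusted p = 0.747), without overlap, and 0.21 without AAP 3. AAP 3 was the lowest AAP array on the bright probe and the highest on the dim probe.

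**Figure D3:**
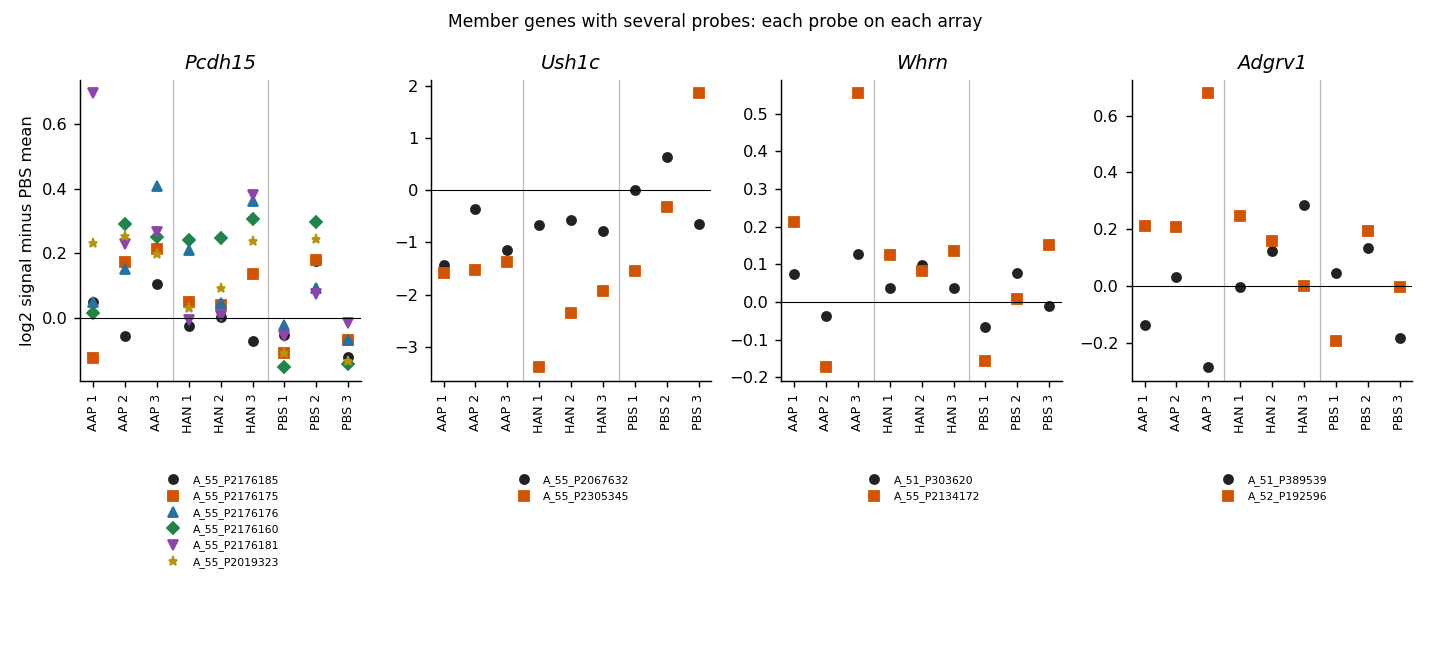
Each probe of the 4 genes with several probes, as log2 signal minus the mean of the 3 PBS arrays, by array (AAP, HAN, then PBS). The Ush1c probe A_55_P2305345 has a single high point in PBS 3, and the Adgrv1 probes part in AAP 3; the vertical scale differs between panels.

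Other genes associated with Usher syndrome or related deafness-blindness showed no called difference. Of 8 such genes 7 were on the array, and all 7 were measured. In AAP against PBS 3 were higher and 4 lower, in HAN 4 were higher and 3 lower, and limma called 0 in either comparison, with 0 at an unadjusted p under 0.05. Cib2, a calcium-binding partner of the hair cell transduction channel, was 0.05 below PBS in AAP and 0.08 below in HAN, both without overlap (adjusted p = 0.866 and 0.677). In HAN, Hars and Abhd12 also lay below PBS without overlap, by a log2 difference of -0.16 and -0.15 (adjusted p = 0.648 and 0.604). Over all probes, 5.57% in AAP and 10.3% in HAN lay below PBS without overlap, and nothing is read from these genes being among them. Log2 differences from PBS for Arsg, Cep250, Cep78, Abhd12 and Hars ran from -0.09 to 0.18 in AAP and from -0.16 to 0.08 in HAN. Of the paralogues of Clrn1, Clrn3 was not measured, and Clrn2 was near background and averaged 0.28 below PBS in AAP (adjusted p = 0.844) and 0.07 above in HAN (adjusted p = 0.947).

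Genes whose proteins bind the Usher proteins were also not called. Of 7 measured, 5 were higher and 2 lower in AAP and 7 were higher in HAN, with 0 calls by limma and unadjusted p under 0.05 for 1 and 0. That gene was Myo15, the motor that carries whirlin in hair cells, at 0.13 above PBS in AAP (adjusted p = 0.747) and 0.10 in HAN (adjusted p = 0.588), both without overlap. Over all probes, 6.2% in AAP and 10.3% in HAN lay above PBS without overlap. An unadjusted p under 0.05 was reached by 1934 of all 29267 probes in AAP and 2747 in HAN. Vezt, Myrip, Rab27a and Magi2 ran from 0.05 to 0.22 in AAP and from 0.04 to 0.12 in HAN. Espn and Eps8, which build actin bundles, stood at -0.15 and -0.12 in AAP and at 0.02 each in HAN. Of 22 photoreceptor cilium genes, all measured, 16 were higher and 6 lower in AAP and 12 were higher and 10 lower in HAN, with medians of 0.04 and 0.02 and 0 calls by limma or at an unadjusted p under 0.05. Of 12 hair bundle genes 8 were measured, with medians of -0.04 in AAP and -0.08 in HAN, 0 calls by limma, and unadjusted p under 0.05 for 0 and 1.

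The genes whose profile over the 9 arrays was most like that of Clrn1 were Pid1, Arl5c, Ticam1, Hkdc1 and St6galnac5. Likeness was the root mean square difference between log2 values centred on their mean over the 9 arrays, among 20456 candidate probes, and it was 0.109 to 0.113 for these 5. They were chosen for this likeness, so no test is given. Log2 differences from PBS ran from -0.50 (Hkdc1) to -0.31 (Arl5c) in AAP and from -0.32 (Hkdc1) to -0.10 (Pid1) in HAN. Among the Usher genes Myo7a was nearest, at 0.194, which ranks 1482 of 29229 probes. The other 13 member probes differed by 0.238 to 1.29.

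**Figure D4:**
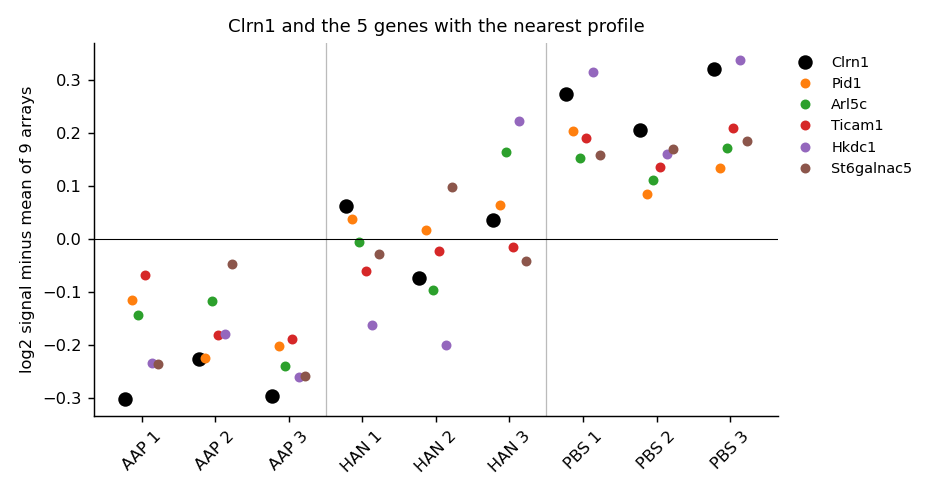
Log2 values centred on the mean over 9 arrays for Clrn1 and the 5 genes most like it, by array (AAP, HAN, then PBS). Each point is a probe on an array. All 6 probes are lower in AAP than in PBS, as their selection requires.

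Several marker lists were, like Clrn1, lower in both peptide groups by their median. Cone markers were lower in 6 of 9 genes in AAP and 8 in HAN (medians -0.07 and -0.09). Pigment epithelium markers were lower in 6 and 10 of 11 (-0.09 and -0.31), and erythrocyte markers in 5 and 4 of 5 (-0.26 and -0.13). Limma called 0 in these lists. Of 12 microglia markers 12 were lower than in PBS in AAP (median log2 difference -0.77) and 12 in HAN (-0.62), and their summed level was 9.15 to 14.3 in AAP, 9.14 to 15.2 in HAN and 16.7 to 18.1 in PBS. Limma called 0, with unadjusted p under 0.05 for 8 and 2, and Aif1, C1qa and C1qb stood at -0.72, -0.90 and -0.89 in AAP and -0.59, -0.67 and -0.73 in HAN. Of 10 reactive glia genes (Gfap, Timp1 and Lcn2 among them) 10 were lower in each peptide group, with medians of -1.51 in AAP and -0.45 in HAN, and summed to 5.07 to 13.5 in AAP, 10.3 to 18.2 in HAN and 20.2 to 21.8 in PBS. Limma called 0 of these, with unadjusted p under 0.05 for 8 and 1. Of all 29267 probes, 1934 in AAP and 2747 in HAN reached an unadjusted p under 0.05 against PBS.

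Mueller glia, the support cells in which Clrn1 transcript has been placed in mouse retina, had 9 of 11 markers lower in AAP and 7 of 11 in HAN, with medians of -0.12 and -0.03. Their sum was 152 to 188 in AAP, 167 to 187 in HAN and 171 to 197 in PBS. Rlbp1, Glul and Aqp4 among them stood at 0.02, 0.18 and -0.30 from PBS in AAP and -0.17, 0.08 and -0.12 in HAN. Limma called 0 of the 11 markers, with unadjusted p under 0.05 for 2 and 0. Rod markers were higher in 9 of 13 genes in AAP and in 2 of 13 in HAN, with medians of 0.05 and -0.15, and all 10 ganglion cell markers were higher in both peptide groups, with medians of 0.21 and 0.23; limma called 0 of either list, with unadjusted p under 0.05 for 1 and 2 rod and 2 and 3 ganglion cell markers. For comparison, 1934 of all 29267 probes in AAP and 2747 in HAN reached an unadjusted p under 0.05 against PBS. The part of the listed cell types in the Clrn1 values was not tested.

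**Figure D5:**
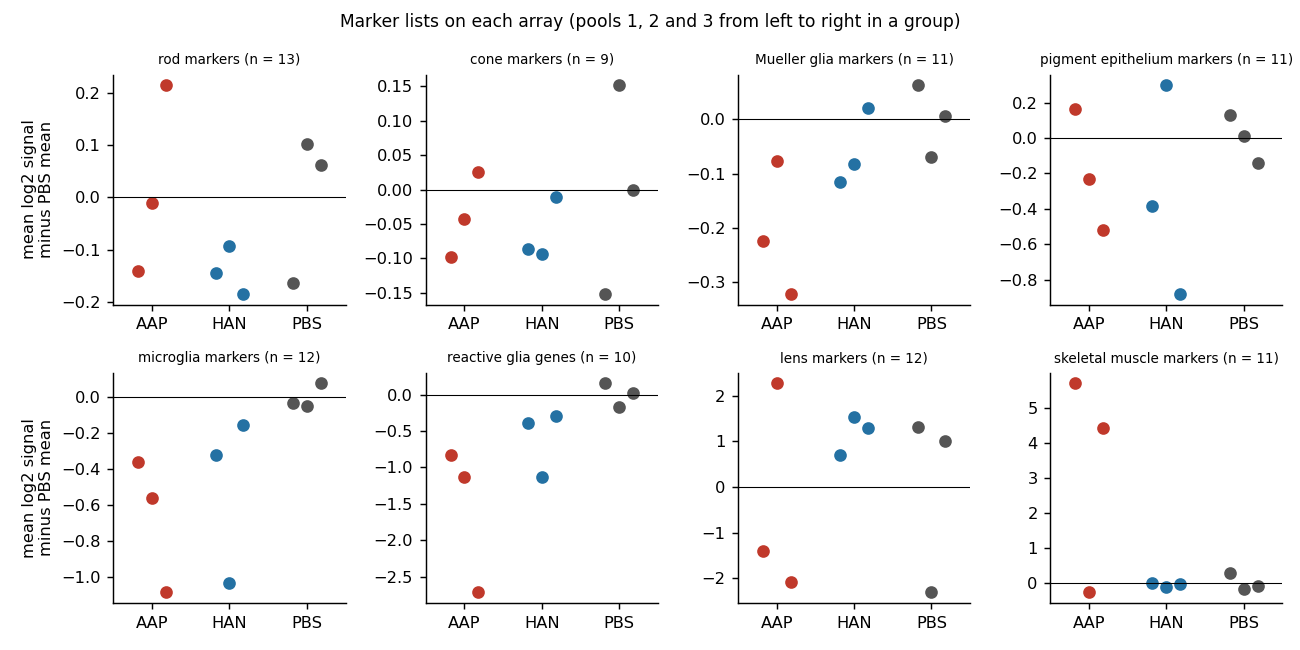
Mean log2 level of each marker list minus its PBS mean, by array (AAP, HAN, then PBS). Microglia and reactive glia lists lie below PBS on every peptide array, while the muscle list is high on AAP 1 and AAP 3 alone; the vertical scale differs between panels.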

How the data were processed

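RNA of 9 pools of mouse retina was measured on 1-colour Agilent arrays. Per the file headers, the authors quantified spots with Agilent Feature Extraction 11.0.1.1, and the deposited processed signal is a background-subtracted intensity on a linear scale, not normalised between arrays; the design is annotated on mm9. Control and outlier spots were left out. Log2 of the deposited intensity minus each array's 75th percentile was used. Probes well above background throughout 1 group or more were kept. A single limma 3.58.1 fit (R 4.3.3) over the 9 arrays estimated each group's mean and gave two-sided tests, with Benjamini-Hochberg adjustment over 29267 probes and a threshold of 0.05; it was tested on simulated data. The number of arrays limits precision: the median 95% interval half-width was 1.19-fold. The p-values rest on the spread between pools within a group, pooled over the 3 groups and moderated by limma across probes.

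Symbols and promoters came from RefSeq tables of GRCm38.p6, through the probe's transcript accession: 26055 probes matched 19751 symbols. No coordinates were taken for probes. The members, lists, tests and alternatives were chosen with earlier results of these data known. Named were all member probes, the listed Usher-associated genes, paralogues and partners, the first 3 measured genes of a marker list whose sum is given, and the 5 genes nearest to Clrn1; some of these are not reported here. The authors' deposited value table equalled the processed signal for at least 99.8% of probes on each array within a relative tolerance of 0.0001, so its scale, centring and direction are known; its medians were 265.5, 237.6 and 164.7 in AAP 1 to AAP 3, 251.1, 242.5 and 296.5 in HAN 1 to HAN 3 and 298.3, 256.4 and 231.9 in PBS 1 to PBS 3. Alternatives were normexp (on median spot signals, as the files used hold no mean signal, offset 50), quantile normalization, other filters, the deposited table, 1 probe a gene, slide and replicate blocks, array weights and leaving out arrays. Correlations of same-numbered arrays' deviations were -0.29 to 0.40, with 3 of 9 over 0.1, so numbers were not taken as pairs.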

Additional observations from a re-analysis of the deposited data

How the results depend on the processing

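Among member probes other than that of Clrn1, limma called 0 under every alternative run. With 1 probe a gene, Clrn1 included, 429 of 455 values kept their direction. Some of these values could not change. The filters, 1 probe a gene, the replicate block and leaving out an array outside the comparison repeat the main estimate. These counts therefore overstate the agreement between settings. Of the 411 with an adjusted p, 385 kept direction and side of the threshold, and the lowest adjusted p was 0.120; 44 Clrn1 values have no test, and 4 of them moved by more than the spread between arrays. Clrn1 in HAN against PBS ranged over limma adjusted p of 0.120 to 0.928, which includes the lowest given above. Its PBS arrays and pooled spread also entered its selection, so these are not independent tests. The count of all probes called in AAP against PBS (1) became 0 with normexp, quantile normalization, no filter, 1 probe a gene, a replicate block, normexp without HAN 3, and AAP 2 alone, and became 52 with slide as a fixed block and 91 within slide 1; leaving out 1 array gave 0 to 14, with 14 without AAP 2. In HAN against PBS (1) it became 0 with normexp, 1 probe a gene, a replicate block and normexp without HAN 3, 2 with slide as a fixed block and 4 with array weights, and leaving out 1 array gave 1 to 2. In AAP against HAN (0), leaving out 1 array gave 0 to 12, with 12 without AAP 2. No other call changed under the replicate block.

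Signs turned as follows for the brightest probe of each gene. Normexp gave 0.41 for Clrn1 and 0.34 for Ush1c in HAN against PBS and 0.014 for Ush1g in AAP against PBS (also 0.014 without HAN 3). Normexp moved Clrn1 in AAP to -0.23 from PBS and -0.64 from HAN (-0.14 without HAN 3). It moved the median of all probes to 0.18 in HAN against PBS and -0.14 in AAP against HAN. Over the 7317 dimmest probes, Clrn1 among them, these normexp medians were 0.72 and -0.56. Quantile normalization gave -0.011 for Myo7a in HAN against PBS. For Pcdh15 in HAN against PBS, slide as a fixed block gave 0.012, array weights 0.0080 and normexp without HAN 3 0.027. Array weights gave 0.019 for Ush1g in AAP against PBS. AAP 2 alone gave, against PBS, 0.11 for Ush1g, 0.032 for Adgrv1, -0.056 for Pcdh15 and -0.039 for Whrn, and against HAN 0.31 for Ush1c and -0.024 for Pcdh15. Leaving out 1 array gave -0.034 to 0.061 for Myo7a in HAN against PBS, -0.071 to 0.093 for Ush1g and -0.029 to 0.12 for Pcdh15 in AAP against PBS, -0.093 to 0.056 for Pcdh15 in HAN against PBS and -0.039 to 0.043 for Whrn in AAP against HAN. Of the 24 differences of the 8 further probes, 15 turned under at least 1 alternative. With slide as a fixed block, Pcdh15 A_55_P2176175 gave -0.13 in AAP and -0.28 in HAN against PBS, A_55_P2176176 -0.10 and Adgrv1 A_52_P192596 -0.03 in HAN against PBS. AAP 2 alone gave -0.17 for Whrn A_55_P2134172 against PBS, and normexp -0.25 for Ush1c A_55_P2305345 in AAP against HAN. The cause was not tested. Normexp without HAN 3 and AAP 2 alone were chosen after seeing the data.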
